A study of Mus musculus with 36 samples.

Results

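The 184 transcripts described here are those whose coding sequence held up to 100 codons and whose ribosome footprint level in unstressed mouse embryonic fibroblasts averaged at least 2 RPKM (reads per kilobase of coding sequence and per 1e6 reads). They came from 11037 transcripts in the footprint lists. Of these, 234 had a coding length of up to 300 nt, 49 of them lay below the level limit and 1 was left out by its identifier. Another 9031 transcripts passed the same level limit with a longer coding sequence and are given beside them. The coding length was not listed but solved from the deposited values, as the shortest length that gave whole reads in every library listing the transcript. Members ran from 78 to 300 nt, with a median of 246 nt. The level limit used the Normal Condition libraries only, and no stressed or recovering sample chose a member by its level.

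All samples were embryonic fibroblasts of the strain C57BL/6J, grown to about 80% confluency, and hyperosmotic stress was applied by adding sorbitol, a sugar alcohol that draws water out of cells. The stressed groups were 500 mOSM 2h, 600 mOSM 2h, 700 mOSM 15min and 700 mOSM 2h. In the recovery groups either 700 mOSM exposure was followed by a recovery of 15 min or 2 h, and the unstressed group was the Normal Condition. Each of the 9 groups had 2 footprint and 2 RNA libraries, both made from cytoplasmic extracts. Footprints were fragments of 28 to 30 nt left by RNase I on pooled gradient fractions that held the single ribosomes and everything below them, with cycloheximide in the lysis buffer.

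Coding sequences of this size encode small proteins. Among those known in mouse cells are ribosomal proteins, subunits of the mitochondrial respiratory chain, core proteins of the splicing particles, and small membrane and secreted proteins. Ribosomes cover an mRNA fragment while they translate it, so that footprint reads per length measure ribosome density on a coding sequence. Strong hyperosmotic stress is known to slow translation in mammalian cells. The files identify transcripts by Ensembl transcript identifiers that no table used here pairs with gene names, so that members are given by their coding length and only 4 by identifier. Fibroblast markers could not be checked for the same reason.

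In footprint libraries the listed transcripts had 734083 to 9124787 reads, and the 4 libraries of 700 mOSM had the fewest. These reads were solved together with the lengths. In the deepest library they exceeded its solved total of 9108030, so that some solved values may be inexact. The reason was not tested. Both footprint libraries of a group differed by little more than sampling noise (mean chi-square per degree of freedom 1.005 to 1.087 over the 9 groups for transcripts listed in both, and up to 1.25 for members, or 1.36 with unlisted values at 0), so their mean was counted as 1 sample and footprint changes carry no test. The footprint lists left out transcripts below about 5 reads. A member listed in neither library of a group was set to 0, and its change then depends on the added constant. Such a change is no measure of size, and lower quartiles and low medians can rest on such values. Medians with 5 reads in their place, a choice made after seeing the data, are given beside them where many members were unlisted. As the lists start at about 5 reads, these medians are near an upper limit. In all, 122 members were listed in all 18 footprint libraries and 7 in fewer than 10. RNA libraries held 6851958 to 55262396 reads and had 2 separate values a group. The labels do not say that these were separate cultures, so that p-values measure the spread between libraries. For RNA of the groups 700 mOSM 15min Recovery 2h and 700 mOSM 2h Recovery 15min, the file names are worded the other way round than the labels. The labels were followed and no efficiency was computed for these groups.

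Without stress, short coding sequences were densely covered by ribosomes. Their median footprint level was 165 RPKM (quartiles 41.7 and 610.2, range 2.30 to 14279), against 22.2 RPKM (8.24 and 65.4) for the longer ones. RNA levels lay closer together, with a median of 28.7 FPKM (fragments per kilobase and per 1e6 fragments) for 182 members with an RNA value, against 14.5 FPKM. The log2 ratio of footprint to RNA level had a median of 2.26 (quartiles 1.60 and 2.89) for members and 0.61 for longer coding sequences. Most members lay high, and 154 of 184 members lay at or above the median of the longer ones. There were 14 members among the 100 highest footprint levels and 89 among the 1000 highest, while 15 members had under 10 RPKM. The ratio itself ranged from −2.25 in a member of 91 codons to 5.47 in one of 51 codons. Members of 77 and 83 codons followed at 5.45 and 4.95, and members of 80 and 47 codons stood at −2.15 and −1.49. How reads shared by near-identical gene copies were counted is not given in the sources used here, and the level of a single member is uncertain where such copies exist.

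At 700 mOSM most short coding sequences held more of the ribosome density, while 48 members after 2 h were at least 2-fold lower, 33 of them listed in neither library. Changes are log2 ratios of scaled RPKM + 1 against the Normal Condition, scaled by the median ratio over 4619 transcripts. After 2 h at 700 mOSM the median change of members was 0.99 (quartiles −1.17 and 1.87), against −0.94 (−2.03 and 0.32) for longer coding sequences. Higher by at least 2-fold were 91 of 184 members (49.5%, against 15.3% of all 9216 transcripts with the same level limit), and at least 2-fold lower were 48 (26.1%, against 48.2%). After 15 min at 700 mOSM the median was 0.63 (quartiles −1.96 and 1.58) for members and −0.96 for longer ones. Here 74 members (40.2%) were higher and 54 (29.3%) lower by at least 2-fold, against 16.2% and 49.0% of all. The highest changes of single members were 3.53 after 2 h and 3.14 after 15 min, and the lowest values were those of members listed in neither library. This scaling moved all footprint changes by 0.47 after 2 h and by 0.56 after 15 min. As deposited, the members' medians were 0.52 and 0.08, against −1.36 and −1.46 for longer coding sequences. Then 39.7% and 25.5% of members were at least 2-fold higher, against 9.51% and 7.99% of all.

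**Figure D1:**
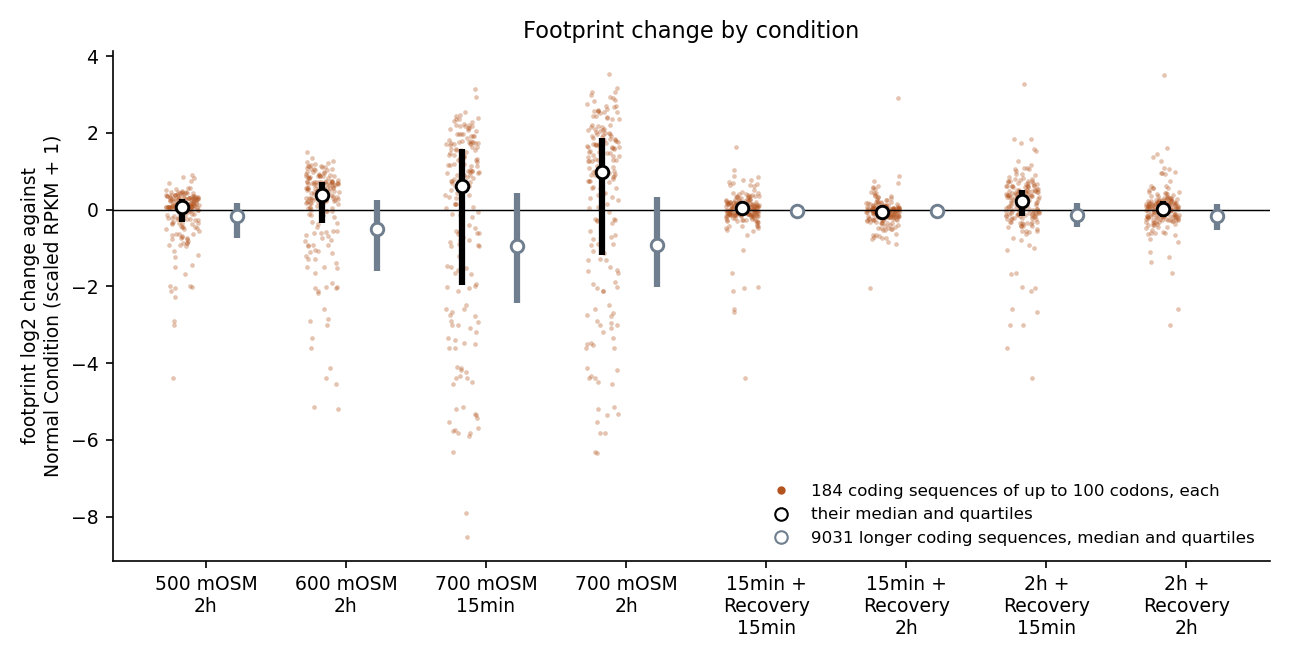
Footprint log2 change (scaled RPKM + 1) of each stress and recovery group against the Normal Condition. Orange points are the 184 coding sequences of up to 100 codons, black circles and bars their median and quartiles, and grey ones those of the 9031 longer coding sequences. At 700 mOSM the members' medians are 0.63 after 15 min and 0.99 after 2 h, those of the longer ones −0.96 and −0.94. In the recovery groups the members' medians lie between −0.05 and 0.23. Their quartiles are widest apart with 15 min of recovery from the 2 h stress (−0.17 and 0.51).

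Much of the lower tail came from members with too few reads to be listed. After 2 h at 700 mOSM 33 members (17.9%) were listed in neither library, as were 21.2% of the longer transcripts. After 15 min these were 41 members (22.3%), against 26.6%. Their unstressed level predicted a median of 4.95 reads after 2 h and 7.99 reads after 15 min, summed over both libraries, and 2 and 3 of these members had at least 30 expected reads. With every unlisted value set to 5 reads instead, 13 members (7.07%) were at least 2-fold lower after 2 h and 14 (7.61%) after 15 min, against 27.6% and 27.9% of all. The medians were then 1.44 and 1.01 for members, against −0.26 and −0.17 for longer coding sequences. Put in each library, 5 reads exceed the median count predicted for the members listed in neither. A member can thus count as higher by this setting alone. After 2 h 111 members (60.3%) were then at least 2-fold higher, against 19.1% of all. Among members with at least 30 expected reads, the median was 1.50 after 2 h (n = 117, 62.4% at least 2-fold higher and 11.1% lower) and 0.99 after 15 min (n = 121, 49.6% and 13.2%). Longer coding sequences with as many expected reads were higher in 15.1% and lower in 43.4% after 2 h, and in 18.4% and 42.3% after 15 min. The part of depth in the count of lower members was not tested. An exact 95% interval of the ratio, which covers counting error only, lay above 1 for 111 members (60.3%) after 2 h, below 1 for 39 (21.2%) and held 1 for 34. Of all transcripts 24.1% lay above and 55.8% below.

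The members' share of a library, which needs no scaling between libraries, was also higher in each stressed group. As a sum it is weighted by the most abundant members and does not show how many members rose or fell. Members made up 11.6% and 11.7% of the summed RPKM in the Normal Condition libraries, 13.0% and 13.1% at 500 mOSM, 16.6% and 16.6% at 600 mOSM. At 700 mOSM they made up 21.8% and 21.9%, each after 2 h. After 15 min at 700 mOSM the share was 18.2% and 18.1%. Counted as reads, which weigh long coding sequences more, the share was 7.68% and 7.71% after 2 h at 700 mOSM, against 3.01% and 3.01% in the Normal Condition. Both libraries of a group lay close together, and no stressed library overlapped the unstressed ones. The corresponding share of RNA values was 5.32% and 5.25% after 2 h at 700 mOSM, against 4.44% and 4.19%.

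**Figure D2:**
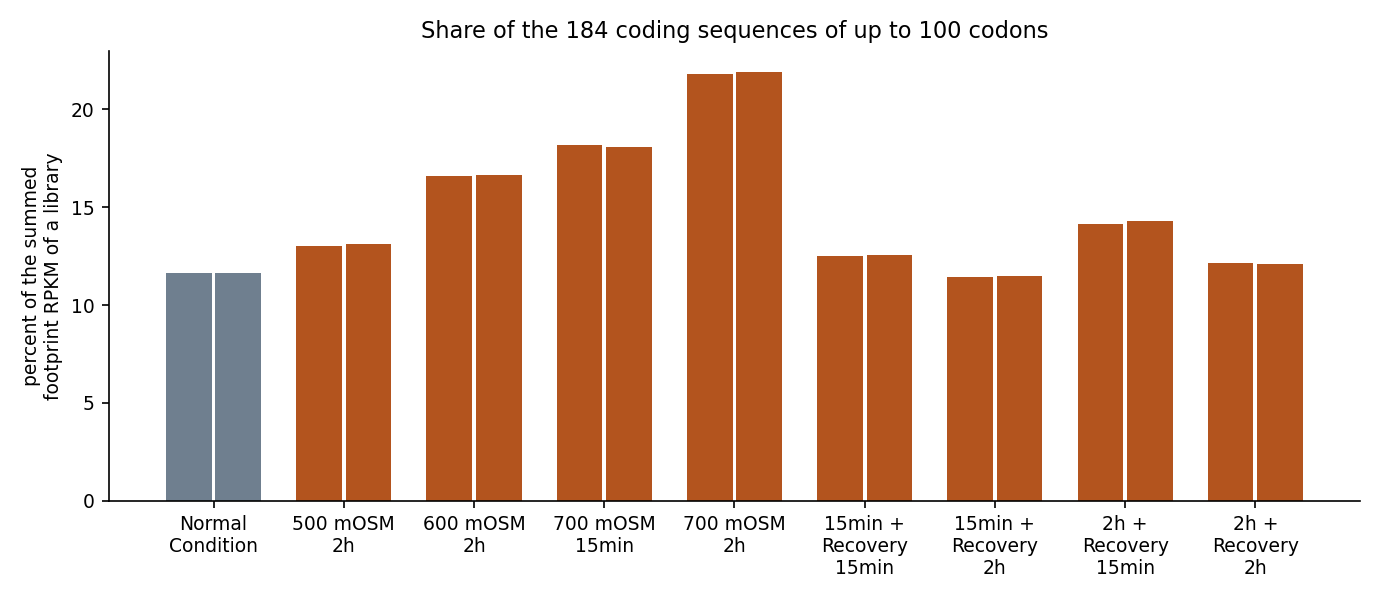
Percent of the summed footprint RPKM of each library that fell to the 184 coding sequences of up to 100 codons, 1 bar for each library and 2 for each group. The grey bars are the Normal Condition at 11.6% and 11.7%, and the bars at 700 mOSM 2h reach 21.8% and 21.9%.

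At lower osmolarity the changes were smaller. At 600 mOSM 2h the median was 0.37 for members and −0.50 for longer coding sequences, with 18 members (9.78%) higher and 30 (16.3%) lower by at least 2-fold, against 3.34% and 37.1% of all. As deposited, with a shift of −0.12 between the scalings, 14.7% were at least 2-fold higher, against 5.19% of all. At 500 mOSM 2h the median was 0.08 for members and −0.17 for longer ones. No member was at least 2-fold higher there and 15 (8.15%) were at least 2-fold lower, against 0.629% and 17.8% of all. Taken through the series of 2 h exposures, 87 members (47.3%) were higher at every step from the Normal Condition over 500 and 600 to 700 mOSM, and 25 (13.6%) were lower at every step. For longer coding sequences these shares were 16.3% and 27.4%. The level was highest at 700 mOSM in 113 members (61.4%) and lowest there in 44 (23.9%), against 25.7% and 45.3% of the longer ones. A transcript at 0 at both 600 and 700 mOSM was counted neither as lower at every step nor as lowest at 700 mOSM. The counts of falling members thus leave out such losses. At 600 mOSM 13 members (7.07%) were listed in neither library, against 6.10% of the longer ones.

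With unlisted values at 0, the limit of 100 codons was no step in the data. After 2 h at 700 mOSM the median footprint change was 1.71 for the 29 members of up to 200 nt, 0.92 for the 72 of 200 to 250 nt and 0.90 for the 83 of 250 to 300 nt. Beyond the limit, 136 coding sequences of 300 to 350 nt had a median of 0.95, and 175 of 350 to 400 nt one of 0.34. With unlisted values at 0, medians further out were −0.11 at 400 to 600 nt, −0.90 at 600 to 1200 nt and −1.09 above 1200 nt. With unlisted values at 5 reads the member classes had 1.71, 1.62 and 1.01. Classes beyond the limit are not given at 5 reads, so that a step cannot be judged for that setting. All other medians by coding length have unlisted values at 0. The order after 15 min was alike up to 1200 nt, with 1.52, 0.55 and 0.30 in the member classes and 0.98, 0.42, −0.42 and −1.55 in the next 4, but −0.84 above 1200 nt. The shortest class also had the highest median at 600 mOSM 2h, 0.69, against 0.39 and 0.30 in the other member classes. Just inside the limit, 2 members of 300 nt had changes of −0.25 and 0.06 after 2 h at 700 mOSM. Just outside, 2 transcripts of 303 nt had changes of 1.17 and 1.47. At the other limit, the members with the lowest levels had 2.30 and 3.31 RPKM, and the nearest transcripts below it had 1.69 and 1.89 RPKM. All 4 were listed in neither library of both 700 mOSM groups.

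The length of the rest of the transcript, its untranslated part, also sorted the members. It had a median of 583.5 nt for members and 1155 nt for longer coding sequences. After 2 h at 700 mOSM the median footprint change was 1.84 for the 12 members with up to 200 non-coding nt, 1.60 for the 46 with 200 to 400 nt, 0.90 for the 71 with 400 to 1000 nt and −0.76 for the 53 above 1000 nt. Longer coding sequences of the same 4 classes had 0.03, −0.19, −0.63 and −1.26, leaving out 5 whose solved lengths put the coding sequence beyond the transcript. In each class the members' median was thus the higher one, and in both sets it was lower with each step in non-coding length. After 15 min the members' medians were 1.60, 1.15, 0.15 and −1.20. Above 1000 nt 16 members after 2 h and 18 after 15 min were listed in neither library, and with 5 reads in their place the medians of this class were 0.56 and 0.50. Those of the other 3 classes were then 2.04, 1.65 and 1.33 after 2 h. Unstressed level went along with this length, from a median of 465 RPKM in the first class and 552 RPKM in the second to 90.1 RPKM above 1000 nt. Among members with at least 30 expected reads the 2 h medians were 2.01, 1.64, 1.30 and 0.65 (n = 9, 35, 43 and 30), so that the order held but the last class was no longer below 0. Across members the rank correlation of change with non-coding length was −0.35 (n = 182), and with at least 30 expected reads −0.30 (n = 117). The members share their libraries and depth.

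**Figure D3:**
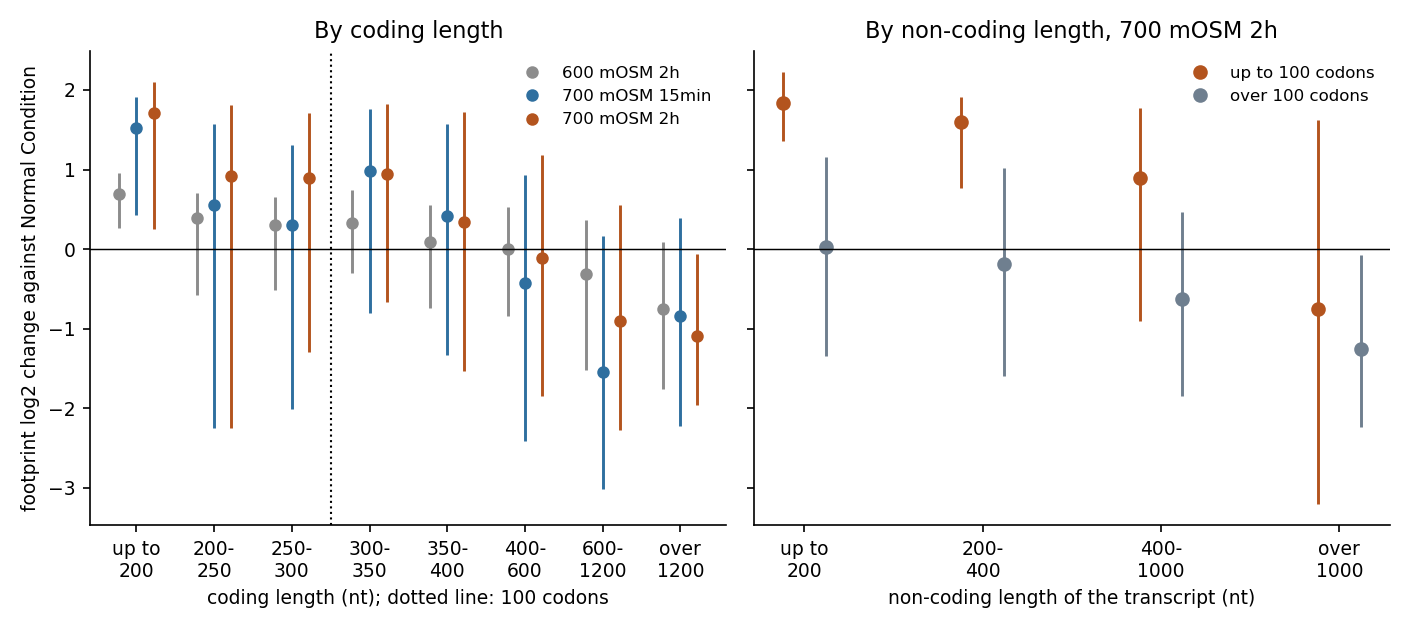
Median (points) and quartiles (bars) of the footprint log2 change against the Normal Condition, by coding length in nt for 3 stress groups (left) and by the transcript's non-coding length in nt after 2 h at 700 mOSM (right). Left of the dotted line are the members, with 2 h medians of 1.71, 0.92 and 0.90 at 700 mOSM, and the next class beyond the line has 0.95. On the right the members (orange) lie above the longer coding sequences (grey) in each class.

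Among members that were nearly all listed, the change at 700 mOSM was higher with a higher unstressed level. After 2 h the median change was 1.60 in the 89 members above 200 RPKM, all of them listed, and 0.93 in the 43 of 50 to 200 RPKM, 4 of which were in neither library. Of the 37 members of 10 to 50 RPKM 16 were in neither library, as were 13 of the 15 below 10 RPKM, and their changes cannot be sized. In the 35 members with more than 300 expected reads, where counting error is smallest, the median was 1.80 and 80.0% were at least 2-fold higher. Longer coding sequences with as many expected reads had a median of −0.41, and 20.7% were at least 2-fold higher. Members were also split into 3 groups by their unstressed ratio of footprint to RNA level, at 1.78 and 2.63. The highest ratios had a 2 h median of 1.69 and the middle ones of 0.97. In the lowest group 27 of 61 members were in neither library, and the median was −1.13 with these at 0 and 1.49 with these at 5 reads, so that no order can be read for it. The unstressed level is the denominator of each change, and these splits are descriptions.

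The 6 members with the highest unstressed levels, of 90, 98, 52, 26, 71 and 84 codons, all had higher scaled footprint levels at 700 mOSM. These levels are relative within a library. Recovered reads of the 90-codon member were 57167 in the Normal Condition and 20648 after 2 h at 700 mOSM, in libraries with far fewer reads. The 90-codon member had 59629 and 58938 scaled RPKM in the 700 mOSM 2h libraries, against 13230.3 and 13268.5 in the Normal Condition. Its footprint log2 change was 0.37 at 500 mOSM, 0.92 at 600 mOSM and 2.16 at 700 mOSM after 2 h, with RNA higher by 0.74 (SE 0.093, limma, adjusted p = 8.31e-06). The other 5 members had footprint changes of 1.30 to 2.20 after 2 h and 0.77 to 2.08 after 15 min at 700 mOSM. In the 26-codon member RNA rose by 0.51 after 2 h (limma, adjusted p = 0.00335), but its change after 15 min was −0.04 (adjusted p = 0.786), beside a footprint change of 0.95. In all 4 recovery groups the footprint changes of these 6 members stayed between −0.22 and 0.39.

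ENSMUST00000185219, of 60 codons on a transcript of 1606 nt, had the largest footprint change after 2 h at 700 mOSM among members with at least 30 expected reads. Its scaled RPKM were 267 and 268 in the Normal Condition, 344 and 375 at 500 mOSM, 755 and 749.7 at 600 mOSM. At 700 mOSM they were 3254 and 2971, all after 2 h. Each step of the series lay above the one before, with no overlap of libraries. After 15 min at 700 mOSM the levels were 1487 and 1630.5. The ratio to the Normal Condition was 11.6 after 2 h (exact 95% counting interval 10.4 to 12.8, 720 reads against 770) and 5.86 after 15 min (5.18 to 6.62). With 2 h of recovery after the 2 h stress, the levels were 349 and 348. RNA differed far less, with 27.2 ± 0.535 FPKM after 2 h at 700 mOSM and 20.4 ± 0.591 in the Normal Condition (SD, n = 2 each). This was a rise of 0.40 on the log2 scale (SE 0.14, limma, adjusted p = 0.0305), which did not pass as deposited (adjusted p = 0.0914, range over 9 alternatives 0.00952 to 0.0914). After 15 min RNA rose by 0.43 (limma, adjusted p = 0.00963).

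ENSMUST00000087342, of 70 codons on a short transcript of 392 nt, was high already after 15 min. It had 15863 and 14674 scaled RPKM after 15 min and 16949 and 16545 after 2 h at 700 mOSM, against 2003 and 1992 in the Normal Condition. The 500 mOSM libraries, with 1549 and 1506, lay below the unstressed ones, and the 600 mOSM libraries had 3021 and 2862. In the recovery from the longer exposure it stayed above the unstressed level, with 7283 and 6977 after 15 min, and with 3824 and 3791 after 2 h, of recovery from the 2 h stress. The ratio to the Normal Condition was 8.37 (8.06 to 8.70) after 2 h and 7.60 (7.32 to 7.90) after 15 min. RNA averaged 1125 ± 16.7 FPKM after 2 h at 700 mOSM and 642 ± 5.25 in the Normal Condition (SD, n = 2 each), a rise of 0.81 (limma, adjusted p = 1.31e-05). After 15 min at 700 mOSM RNA had risen by 1.12 (limma, adjusted p = 2.37e-07).

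ENSMUST00000042662, of 79 codons on a transcript of 2256 nt, was listed in neither 700 mOSM 2h library, where its unstressed level predicted 34.0 reads. Along the 2 h series it had 79.2 and 80.8 scaled RPKM in the Normal Condition, 57.6 and 43.6 at 500 mOSM and 26.5 and 28.4 at 600 mOSM. It was still listed after 15 min at 700 mOSM, with 41.8 and 26.7, which rest on 6 and 5 reads. In the recovery groups it was present again, with 68.3 and 67.1 after 15 min of recovery from the 2 h stress. Its RNA fell to 19.4 ± 2.42 FPKM after 2 h at 700 mOSM, against 31.5 ± 6.86 in the Normal Condition (SD, n = 2 each; log2 change −0.67, limma, adjusted p = 0.000618).

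ENSMUST00000034913, of 98 codons on a transcript of 1205 nt, was listed in none of the 4 libraries at 700 mOSM, with 41.9 reads expected after 2 h and 48.1 after 15 min. It had 82.1 and 76.8 scaled RPKM in the Normal Condition, 58.9 and 57.3 at 500 mOSM and 17.1 and 20.3 at 600 mOSM. After 15 min of recovery from the 2 h stress both libraries, with 100.3 and 99.2, lay above the unstressed ones. The RNA of this transcript did not go the way of its footprints. It averaged 39.7 ± 4.48 FPKM after 2 h at 700 mOSM and 30.1 ± 4.69 in the Normal Condition (SD, n = 2 each), a log2 change of 0.39 (limma, adjusted p = 0.0445). That call was lost in 5 of 9 alternatives, over which the limma adjusted p ran from 0.0018 to 0.14. After 15 min the RNA change was −0.14 (limma, adjusted p = 0.398). It was −0.30 and past the threshold without Normal Condition replicate 1, and 0.0103 without replicate 2.

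**Figure D4:**
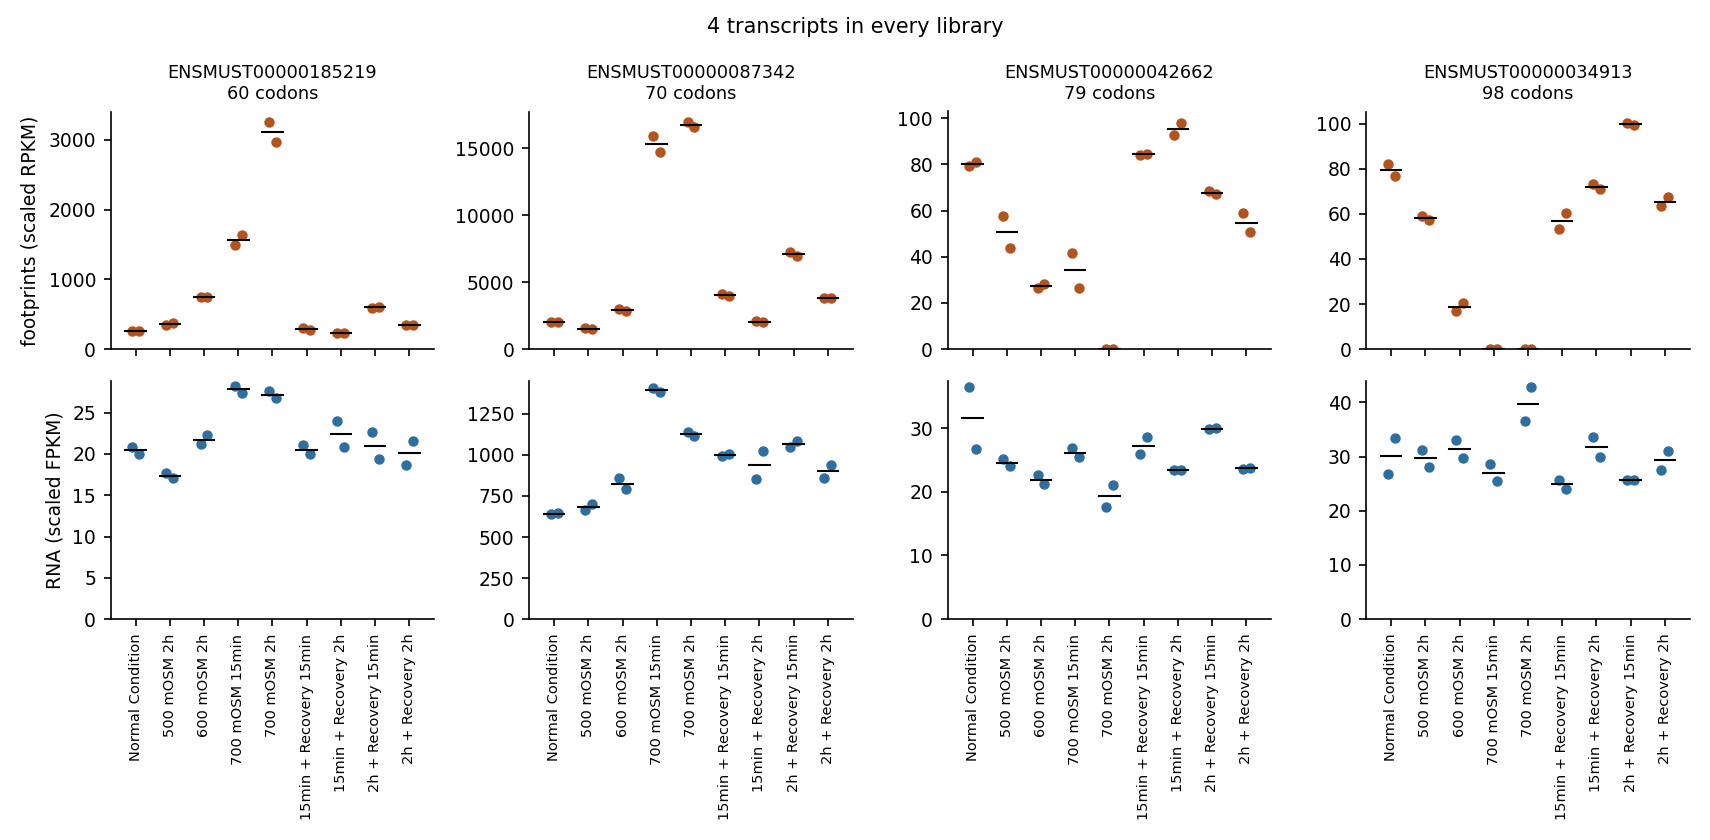
Scaled footprint RPKM (top) and scaled RNA FPKM (bottom) of 4 members in the 18 libraries of each assay, with 1 point for each library and a line at the mean of a group. Footprints of the 60-codon and 70-codon members are highest at 700 mOSM, and those of the 79-codon and 98-codon members are unlisted, drawn at 0, at 700 mOSM 2h.

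Other members lay between these ends. Footprint changes of 3.06, 2.98 and 2.85 after 2 h at 700 mOSM were seen in members of 76, 71 and 77 codons, beside RNA changes of 0.41, 0.56 and 0.57. A 99-codon member without any non-coding length had the largest change after 15 min, 3.14, and one of 2.01 after 2 h. Members of 67, 87 and 90 codons on transcripts of 4611, 1367 and 2476 nt were low instead. The 67-codon and the 87-codon member were listed in neither library after 15 min. After 2 h the 67-codon member was listed in 1 library only, with 9 reads, and its change there was −2.53. The 87-codon member had 7 and 15 reads after 2 h and a change of −1.89. The 90-codon one was listed in 1 library after 15 min, with 10 reads and a change of −3.10 there. After 2 h its change was −3.20, with 31.8 and 57.5 scaled RPKM after 2 h, against 427 and 410.1 in the Normal Condition. Its unstressed ratio of footprint to RNA level, 4.12, was nevertheless well above the members' median.

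RNA of the short coding sequences rose in most cases at 700 mOSM. Of 182 members in the RNA lists 174 passed a filter of 2 FPKM on the mean and were tested, with 9275 transcripts in all. After 15 min at 700 mOSM RNA of 114 members rose and that of 9 fell (limma, Benjamini-Hochberg adjusted p under 0.05), while 51 were not called. Among all transcripts tested 19.3% rose and 30.5% fell. The members' median RNA change was 0.46, against −0.06 for all. Leaving out 1 library at a time, the members' median ran from 0.446 to 0.478. After 2 h 89 members rose, 12 fell and 73 were not called, against 18.7% and 31.0% of all, with a median of 0.39 against −0.05. The members' 2 h median ran from 0.372 to 0.417 with 1 library left out at a time. These values are relative within a library, and in such bulk samples more RNA per cell and more cells with that RNA cannot be told apart. Past 2-fold were 10 of the rises after 15 min, and 1 rise and 1 fall after 2 h, among 174 members tested. Among all 9275 transcripts tested these were 51 rises and 179 falls after 15 min, and 22 rises and 634 falls after 2 h.

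The largest RNA rises after 15 min were 1.41, 1.31 and 1.25 in members of 68, 98 and 68 codons, and after 2 h 1.07, 0.90 and 0.89 in members of 77, 65 and 80 codons. In the 98-codon member the RNA change after 2 h was 0.07. The largest falls were in members of 78, 98 and 89 codons, whose transcripts of 3149, 3566 and 4464 nt are long for this set. They changed by −0.77, −0.70 and −0.64 after 15 min and by −0.83, −0.72 and −1.01 after 2 h. By class, RNA rose after 15 min in 23 of 29 members of up to 200 coding nt. It rose in 37 of 43 tested members with 200 to 400 non-coding nt and in 21 of 50 above 1000 nt, where all 9 falls lay. After 2 h these counts were 20, 35 and 13. Of all transcripts tested, of any length, 19.3% rose after 15 min and 18.7% after 2 h. Longer coding sequences of the same classes are not set beside these counts, which describe the members only.

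Footprints and RNA went together across members. After 2 h at 700 mOSM the median footprint change was 1.69 in the 89 members whose RNA rose, −2.00 in the 12 whose RNA fell and 0.06 in the 73 not called. Of these 3, 4 and 19 were listed in neither library, and with 5 reads in their place the medians were 1.69, −0.50 and 0.95. After 15 min the median was 1.17 in the 114 whose RNA rose, 7 of which were in neither library. Of the 9 whose RNA fell 7 were in neither library, and their median of −4.40 is set by the added constant and was −0.51 with 5 reads. For the 51 not called, with 20 in neither library, the medians were −1.53 and 0.57. The rank correlation of both changes was 0.55 after 2 h and 0.56 after 15 min (n = 182 members, which share libraries and depth), and 0.57 after 2 h with at least 30 expected reads (n = 117). Translational efficiency, here the footprint change minus the RNA change, was still higher than in longer coding sequences. Its median after 2 h was 0.64 for members and −0.68 for longer coding sequences. At least 2-fold higher were 72 members (39.6%) and at least 2-fold lower 48 (26.4%), against 13.9% and 42.2% of all. After 15 min the median was 0.22 against −0.84, with 44 members (24.2%) higher and 58 (31.9%) lower, against 14.3% and 47.3%. As deposited this 15 min median was −0.28, against −1.24 for longer ones, and 7.69% of members were higher, against 7.04% of all. The sign of the 15 min median, and whether footprints or RNA changed more, thus depended on the scaling. At 600 mOSM 2h the median was 0.28 against −0.49, with 13 members (7.14%) higher and 32 (17.6%) lower, against 2.73% and 35.9%. Without replicate 2, 11.5% were higher there. At 500 mOSM 2h the median was 0.07, with 1 member (0.549%) higher and 15 (8.24%) lower, against 0.347% and 17.4% of all. In recovery efficiency lay near the unstressed level, with a median of −0.15 after 15 min from the 15 min stress and −0.11 after 2 h from the 2 h stress. There 0 and 1 members were higher, against 0.358% and 0.651% of all, and 9 (4.95%) and 6 (3.30%) lower, against 1.02% and 8.41%.

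**Figure D5:**
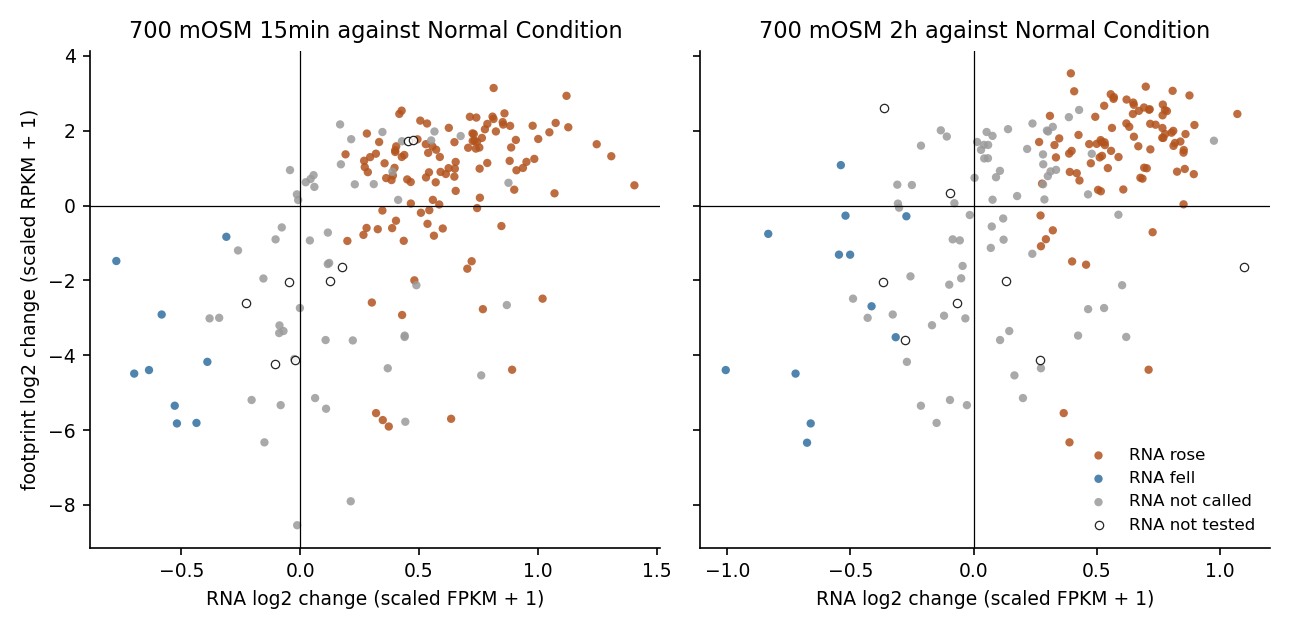
Footprint log2 change against RNA log2 change for the members after 15 min (left) and 2 h (right) at 700 mOSM, each against the Normal Condition, with points coloured by the RNA call (limma, adjusted p under 0.05). Members whose RNA rose (orange) have median footprint changes of 1.17 after 15 min and 1.69 after 2 h, and those whose RNA fell (blue) mostly lie below 0, 7 of 9 of them unlisted after 15 min. The lowest points are members unlisted at 700 mOSM, whose value depends on the added constant.

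At 500 and 600 mOSM RNA was called in few members. At 600 mOSM 2h RNA of 9 rose and of 6 fell, against 3.87% and 9.11% of all, and at 500 mOSM 2h RNA of 2 rose and of 2 fell, against 1.55% and 1.89%. These counts rested on single libraries. At 600 mOSM 29 rose without Normal Condition replicate 1, and 31 rose and 24 fell without replicate 2. Without either 600 mOSM library 3 rose, and 3 fell without its replicate 2. At 500 mOSM 12 rose and 25 fell without Normal Condition replicate 2, and 1 fell without 500 mOSM replicate 1. Counts over all transcripts with the same library left out are not given here.

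In recovery the footprints of most members were near the unstressed level again. The median was 0.03 after 15 min and −0.05 after 2 h of recovery from the 15 min stress, with 2 and 1 members higher and 8 and 1 lower by at least 2-fold. Among all transcripts 0.488% and 0.553% were higher, and 0.825% and 0.293% lower. Of the lower members 7 and 1 were listed in neither library, and with at least 30 expected reads 0.617% and 0% were lower. With single libraries the 2 h values were 1.09% to 1.63% higher and 0.543% to 2.72% lower. From the 2 h stress the return was less complete after 15 min. The median was then 0.23, against −0.13 for longer coding sequences, with 12 members (6.52%) higher and 13 (7.07%) lower, against 1.49% and 5.85% of all. Of these 13 members 10 were listed in neither library, and with at least 30 expected reads 1.95% were lower. After 2 h it was 0.03 against −0.16, with 7 (3.80%) higher and 6 (3.26%) lower, against 3.30% and 7.98%. Of these 6 members 3 were in neither library, and with at least 30 expected reads 1.23% were lower. Set against the stress that came before, members were lower in recovery where longer coding sequences were higher. With 15 min of recovery from the 2 h stress the median change was −0.78 for members and 0.67 for longer ones, and 41 members (22.3%) were higher and 81 (44.0%) lower by at least 2-fold, against 41.1% and 13.1% of all. With 15 min of recovery from the 15 min stress these medians were −0.49 and 0.89, and 50 members (27.2%) were higher and 69 (37.5%) lower, against 47.9% and 16.5%. In the stress groups set below here, 33 members after 2 h and 41 after 15 min were listed in neither library and stood at 0. The shares of longer ones were 21.2% and 26.6%. A transcript listed again in recovery can count as higher for that reason, and such changes are no measure of size.

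Some members stayed well above the unstressed level in recovery. An 80-codon member, that with the second lowest ratio, had 160.3 and 102.6 scaled RPKM with 15 min and 38.4 and 30.6 with 2 h of recovery from the 2 h stress, against 11.7 and 13.8 in the Normal Condition (changes of 3.27 and 1.37). A 68-codon member without non-coding length had changes of 1.83 and 1.26 in the same groups. A 99-codon member on a transcript of 1094 nt, low in unstressed cells with 3.44 and 5.79 scaled RPKM, had 44.3 and 38.0 with 2 h of recovery from the 15 min stress and 59.4 and 65.9 with 2 h of recovery from the 2 h stress. It was listed in no library at 700 mOSM. Its RNA averaged 11.1 ± 1.39 FPKM with 2 h of recovery from the 2 h stress and 1.20 ± 0.436 in the Normal Condition (SD, n = 2 each), a rise of 2.47 (limma, adjusted p = 4.62e-05). In the RNA libraries labelled 700 mOSM 2h Recovery 15min it averaged 10.2 ± 1.34 FPKM, and in those labelled 700 mOSM 15min Recovery 2h 0.781 ± 0.138. Its footprints, at 0 and 6.38 scaled RPKM in the first of these groups, were high in the second. These are the groups whose RNA file names and labels are at odds.

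RNA of more members rose than fell in every recovery group. With 15 min of recovery from the 15 min stress RNA of 26 rose and of 2 fell, against 4.39% and 2.59% of all, and with 2 h of recovery from the 2 h stress 33 rose and 5 fell, against 13.9% and 8.28%. In the libraries labelled 700 mOSM 15min Recovery 2h 29 rose and 5 fell, against 4.92% and 8.37%. In those labelled 700 mOSM 2h Recovery 15min 36 rose and 7 fell, against 8.09% and 6.27%. The unstressed libraries weighed on these counts. In the same order of groups, 69, 52, 52 and 74 rose without Normal Condition replicate 1. Without the other unstressed library 51 rose and 13 fell, 55 rose and 21 fell, and 50 rose and 19 fell in the first 3 of them. Without replicate 1 the falls were 11 in the first group and 14 in the last. Leaving out a library of the recovery group itself also mattered. In the first group 14 rose and 1 fell, or 11 rose and 1 fell. In the second, 1 fell without replicate 1, and 19 rose and 0 fell without replicate 2. In the last, 4 fell without replicate 1, and 20 rose and 2 fell without replicate 2. Shares of all transcripts were not set beside these counts with a library left out.

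The lengths of the stress at 700 mOSM were also set against each other. Footprints after 2 h, set against 15 min, had a median change of 0.32 for members and 0.01 for longer coding sequences. At least 2-fold higher were 30 members (16.3%) and at least 2-fold lower 10 (5.43%), against 19.8% and 15.0% of all, so that the share of higher members was not above that of all transcripts. RNA had a median change of −0.10 between the same groups, and the limma contrast called 17 members (9.77%) higher and 56 (32.2%) lower, against 22.4% and 28.6% of all. The share of lower members was near that of all transcripts. Against 600 mOSM, footprints after 2 h at 700 mOSM had a median change of 0.66 for members and −0.01 for longer coding sequences. Here 65 members (35.3%) were higher and 27 (14.7%) lower by at least 2-fold, against 15.2% and 20.1% of all. In these footprint comparisons, too, members listed in neither library of a group were set to 0. These were 41 after 15 min and 33 after 2 h at 700 mOSM, and 13 at 600 mOSM. Their changes depend on the added constant.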

How the data were processed

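Footprint lists hold RPKM and RNA lists FPKM values per transcript as the authors deposited them, per the file names. The submitters' processing notes list GRCm38, cutadapt, Bowtie and STAR with no version or role, and neither annotation nor counting is given in the sources used here. From the deposited RPKM and FPKM values, each library's total and each transcript's length were solved (Python 3.11.15, numpy 2.4.6, pandas 2.3.3, scipy 1.17.1), giving whole reads within a relative tolerance of 1e-09. The solving and the RNA test were also run on simulated data, with outcomes not given here. The simulation took the solved lengths as true and cannot show that they are right for these libraries. It also gave all RNA groups the same spread, which the groups here did not have.

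Values were scaled by the median ratio over transcripts listed in all 18 libraries of an assay with a mean of at least 10. They were compared as log2(value + 1), which understates changes of low transcripts. RNA was tested with limma 3.58.1 (R 4.3.3) over all 18 libraries, with a weight per group, a variance trend and Benjamini-Hochberg adjustment over the 9275 transcripts tested. Footprint and efficiency changes were not tested. The weight of the Normal Condition was the lowest, 0.320, against 0.540 to 2.23.

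The members, classes and tests were chosen with earlier results of these data known. Named members are the 6 highest in the Normal Condition and, among members with at least 30 expected reads, those with the 4 largest and 4 smallest footprint changes in 3 stress groups. Added are the 3 largest and 3 smallest called RNA changes, the 3 highest and 3 lowest unstressed ratios, and the members at the limits. Gene lists and sequences could not be used without names. Alternatives were another added constant, no scaling, other filters, the replicate number as a block and leaving out each library.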

Additional observations from a re-analysis of the deposited data

Results flagged for a closer look

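RNA of the short coding sequences was set directly between the lengths of the stress at 700 mOSM, and some members differed by that test. In the limma contrast of 2 h against 15 min, 17 of 174 members (9.77%) were higher and 56 (32.2%) lower (Benjamini-Hochberg adjusted p under 0.05), with a median change of −0.10. Of all transcripts tested 22.4% were higher and 28.6% lower, so that the share of lower members was near that of all.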

How the results depend on the processing

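As deposited, without scaling, the members' share at least 2-fold higher was 14.7% at 600 mOSM and 25.5% after 15 min at 700 mOSM in footprints, and 11.5% and 7.69% in efficiency. Of all transcripts these shares were 5.19% and 7.99% in footprints, and 4.76% and 7.04% in efficiency. The members' median efficiency change after 15 min at 700 mOSM was then −0.28, and their median footprint change with 2 h of recovery from the 2 h stress −0.000177. With at least 30 expected reads, the share of footprints at least 2-fold lower was 3.70% at 500 mOSM, 13.2% after 15 min and 11.1% after 2 h at 700 mOSM. In the recovery groups it was 0.617% and 0% after the 15 min stress (the share higher also 0.617% and 0%) and 1.95% and 1.23% after the 2 h stress, each after 15 min and 2 h. The members' efficiency was lower in 3.73% (higher in 0%) at 500 mOSM, 15.7% and 12.8% at 700 mOSM, 1.86% with 15 min of recovery from the 15 min stress and 1.23% (higher in 0%) with 2 h from the 2 h stress. In the same order these shares were 17.6% (higher in 0.299%), 40.7%, 36.3%, 0.499% and 8.28% (higher in 0.641%) of the longer ones. With a filter of 2 on the mean scaled RPKM, footprints of members were lower in 1.69%, 0%, 3.93% and 1.69% in the 4 recovery groups, and efficiency in 2.27% and 1.70% in the 2 that have one. With unlisted values at 5 reads, chosen after seeing the data, footprints were lower in 3.80%, 7.61% and 7.07% at 500 mOSM and both 700 mOSM groups and in 0.543%, 0%, 1.63% and 1.09% in recovery. Efficiency was lower in 3.85%, 11.0%, 12.1% and 8.79% in the 4 stress groups and in 1.65% and 1.65% in recovery. A constant of 0.25 gave 1.09% lower footprints with 2 h of recovery from the 15 min stress and 0% higher efficiency with 2 h from the 2 h stress. Without a filter on RNA, 4 members rose and 1 fell at 500 mOSM, 5 fell with 15 min of recovery from the 15 min stress and 0 with 2 h from the 2 h stress (33 rose and 5 fell with the filter). The causes were not tested beyond fewer members or reads by construction. Where no other share stands beside them, these values and those below describe the members only. Leaving out 1 library at a time, risen and fallen RNA counts ran from 2 to 12 and 1 to 25 at 500 mOSM, 3 to 31 and 3 to 24 at 600 mOSM, 92 to 120 and 8 to 14 after 15 min and 86 to 94 and 12 to 19 after 2 h at 700 mOSM. In recovery they ran from 11 to 69 and 1 to 13, 20 to 52 and 4 to 19, 20 to 74 and 2 to 14, and 19 to 55 and 0 to 21. Single footprint libraries gave 0.543% to 1.09% higher at 500 mOSM, and 1.09% to 1.63% higher and 0.543% to 2.72% lower with 2 h of recovery from the 15 min stress. In efficiency they gave 0% to 1.10% higher at 500 mOSM, 7.69% to 11.5% higher at 600 mOSM, 0% to 0.549% higher with 15 min of recovery from the 15 min stress, and 0% to 1.10% higher and 4.95% to 5.49% lower with 2 h from the 2 h stress. In these last 2 h recovery libraries the median footprint change was −0.00820 without replicate 1 and 0.0807 without replicate 2, and the median efficiency change −0.19 and 0.00236. The median RNA change at 500 mOSM ran from −0.0458 without Normal Condition replicate 2 to 0.0138 without Normal Condition replicate 1 and was 5.82e-05 without 500 mOSM replicate 2. That of ENSMUST00000034913 after 15 min ran from −0.30 to 0.0103 without Normal Condition replicate 1 and 2 in turn. Same-numbered RNA libraries did not deviate together (correlations −0.307 to 0.308 over 36 pairs of groups, 6 over 0.1), and a replicate block gave 118 risen and 9 fallen after 15 min and 90 and 13 after 2 h at 700 mOSM. Fitted without the 4 RNA libraries whose file names and labels disagree, also chosen after seeing the data, these counts were 116 and 8, and 88 and 13.

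Depth limits the 700 mOSM footprints most, where low members fall under the listing minimum of about 5 reads. No molecular identifiers are named in the sources used here, and intervals cover counting error only. Footprint groups hold 1 sample each, and nothing said of them can be set against a spread between cultures.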
